A study of Mus musculus with 2 samples.

Results

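The genes described here are a panel of 50 mouse genes of DNA replication and mitosis, chosen by symbol and used in single-cell work to score where cells stand in the division cycle. The S list has 23 genes of DNA synthesis. The G2/M list has 27 genes of mitosis, of which 26 were measured. In all, 49 of the 50 genes were found among the 19070 genes of the files. Hmgb2, a chromatin protein, was not among them.

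A cell that divides first loads the Mcm helicase on its origins, then copies its DNA in S phase, and then separates the copies on a spindle in mitosis. E2F factors switch on most replication genes before S phase, and the MuvB complexes with B-Myb and Foxm1 switch on most mitotic genes in G2. The transcripts are low in resting cells, so a raised level of both lists is the usual sign of cycling cells in a tissue. In tumours the cancer cells cycle, and so can activated lymphocytes, growing vessels and some resident macrophages, while mature neutrophils do not divide.

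The cells came from tumours that were grown under the skin of mice from Lewis lung carcinoma cells (LLC), an established line. The control library came from tumours of mice given an IgG2a isotype antibody, and the anti-PD-1 library from tumours of mice given an anti-PD-1 antibody, which blocks a receptor that restrains T cells. The series text calls the control untreated and gives 7 days after treatment for the anti-PD-1 cells, with no such time for the control. The number, strain, sex and age of the mice are not given in the sources used here. There was 1 library per group, so each difference between libraries compares these libraries and has no replicate check. Intervals are exact 95% intervals for counting error only, and cells vary by more than that.

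The control library held 8441 barcodes with 113268618 UMIs (unique molecular identifiers, each a counted RNA molecule), against 9423 barcodes and 115407230 UMIs after anti-PD-1. The median kept cell had 7473 and 8744 UMIs. The libraries shared 107 barcode sequences. Each cell was placed in a class by the UMIs of marker genes that are not members. This gave 3816 control and 5657 anti-PD-1 LLC-like cells, 1298 and 1297 macrophage-like, 244 and 360 monocyte-like, 146 and 112 neutrophil-like, 62 and 94 dendritic cell-like, 233 and 87 T cell-like, 96 and 148 natural killer (NK) cell-like, and 65 and 30 endothelial-like cells. Cells that passed for more than 1 lineage (464 and 353) or for none (1930 and 1252) stayed out. Cells that passed for both dendritic cells and macrophages, and for no other lineage, were kept under the higher relative marker level. Among the 10 genes with the highest fold over the other named cells, each class held at least 1 of its own markers. In NK cell-like cells these were Gzma and Prf1, and not the receptors Ncr1 or Klrb1c. The T cell marker Trbc1 was also among their 10. A class is a range of marker levels and not a sharp type: 280 control and 250 anti-PD-1 LLC-like cells lay within 1.25 times the threshold, and 190 and 137 unnamed cells within 0.8 of it. Depth differed by class. The median LLC-like cell of control had 16898 UMIs and that of anti-PD-1 had 13212, and the medians of the immune classes ran from 737.5 (neutrophil-like, control) to 2670.0 (macrophage-like, anti-PD-1).

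The promoters of the panel carry the short DNA motifs by which these genes are known to be grouped, and 4 are shown because these genes had the most UMIs in their list among those with an E2F or CHR motif upstream. The stretches are the 250 bases before the RefSeq start in the build GRCm38.p6, read 5′ to 3′ on the gene's strand. Capitals mark E2F motifs (TTTCCCGC, TTTGGCGC, TTTCGCGC or TTTGCCGC) and CHR motifs (TTTGAA, the cell cycle homology region), on either strand. Hells, a chromatin remodeller, lies on the plus strand at chr19:38930740-38930989. Uhrf1, a factor in the copying of DNA methylation onto new strands, lies on the plus strand at chr17:56304063-56304312. Top2a, the topoisomerase that untangles sister chromatids, lies on the minus strand at chr11:99024190-99024439. Mki67, the source of the Ki-67 protein that coats mitotic chromosomes, lies on the minus strand at chr7:135716380-135716629.
Hells: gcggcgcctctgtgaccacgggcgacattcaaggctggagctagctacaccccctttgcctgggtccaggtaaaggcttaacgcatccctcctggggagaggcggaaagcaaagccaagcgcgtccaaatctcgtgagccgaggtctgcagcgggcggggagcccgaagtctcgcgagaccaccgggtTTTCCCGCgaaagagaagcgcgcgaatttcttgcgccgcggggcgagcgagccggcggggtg
Uhrf1: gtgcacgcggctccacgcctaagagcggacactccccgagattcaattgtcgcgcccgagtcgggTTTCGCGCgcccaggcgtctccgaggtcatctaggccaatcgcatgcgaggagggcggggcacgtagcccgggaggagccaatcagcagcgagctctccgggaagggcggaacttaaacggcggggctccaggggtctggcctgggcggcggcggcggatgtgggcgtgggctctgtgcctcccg
Top2a: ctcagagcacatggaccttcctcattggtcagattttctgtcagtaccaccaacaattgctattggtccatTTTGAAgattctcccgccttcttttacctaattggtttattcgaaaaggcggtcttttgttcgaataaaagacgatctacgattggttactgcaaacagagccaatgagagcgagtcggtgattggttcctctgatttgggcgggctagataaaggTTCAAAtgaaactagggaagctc
Mki67: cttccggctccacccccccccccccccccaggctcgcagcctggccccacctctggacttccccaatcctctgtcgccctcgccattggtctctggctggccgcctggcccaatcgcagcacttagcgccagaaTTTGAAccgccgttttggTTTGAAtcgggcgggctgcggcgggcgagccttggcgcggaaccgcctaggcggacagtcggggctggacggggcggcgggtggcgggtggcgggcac
The Hells match starts 62 bases before the start and the Uhrf1 match 185 bases before it. Top2a has CHR matches 179 and 23 bases before the start, and Mki67 has them at 116 and 98 bases.

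Over the whole 300-base windows (250 before and 50 after the start), the lists differed in what they held. RefSeq promoters were found for 19 of 23 S list genes (22 windows) and 24 of 27 G2/M list genes (25 windows); Mcm4, Gins2, Ccne2, Exo1, Tpx2, Aurkb and Dlgap5 had none in the table. An E2F motif stood in 10 of 22 S list windows (45.5%), 1 of 25 G2/M list windows (4%) and 744 of all 32851 mouse windows (2.26%). A CHR motif stood in 17 of 25 G2/M list windows (68%), 3 of 22 S list windows (13.6%) and 17.9% of all windows. CCAAT, the NF-Y motif, stood in 20 of 25 G2/M and 16 of 22 S list windows, against 37.4% of all, and CCAAT together with CHR in 15 of 25 G2/M list windows against 6.95% of all. Motifs were searched on both strands and counted separately where they overlap. A match describes the letters and is not a measured binding site.

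In LLC-like cells the whole panel was measured, and both lists stood slightly lower after anti-PD-1. Levels are in CPM, which are UMIs scaled to 1000000 per class and library. The S list summed to 3584 CPM (interval 3572 to 3597) in control and 3202 (3190.5 to 3213) in anti-PD-1, a log2 ratio of -0.16. The G2/M list summed to 4047 and 3742 CPM, a log2 ratio of -0.11. Of 49 members, 10 were higher and 39 lower in anti-PD-1, with a median log2 ratio of -0.11, where the median of all genes was -0.01. The counting interval lay below 0 for 34 members and above 0 for 8. LLC-like cells fell into different clusters in the libraries: the cluster with most of them was cluster 5 in control (1012 of 3816 cells) and cluster 3 in anti-PD-1 (1857 of 5657). Within the 7 clusters named LLC-like, the S list was higher after anti-PD-1 in 2 and lower in 5, and the G2/M list higher in 3 and lower in 4. In cluster 3 (112 and 1911 cells) the S list stood at 2578 and 2608 CPM and the G2/M list at 2104 and 3211. In cluster 5 (1073 and 251 cells) they stood at 3726 and 3270.4 CPM and at 4378 and 3749. The part of this makeup in the LLC-like ratios was not tested. At these depths a counting interval is narrow, and it holds no difference between tumours. Over 1.5-fold, 1 of 49 members was higher, beside 3.91% of 11907 genes with at least 100 UMIs, and 0 of 49 lower, beside 8.38% of the same genes. Past 2-fold, 0 of 49 were higher or lower, beside 0.848% and 3.71% of these genes.

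The replication genes of LLC-like cells were ordered by role. The 9 genes that load and run the Mcm helicase summed to 1299 CPM in control against 1146 in anti-PD-1 (log2 ratio -0.18). Within the ring itself, Mcm3 stood at 312.4 and 236.1 CPM (log2 ratio -0.40, interval -0.43 to -0.38) and Mcm6 at 188.9 and 149.1, while Mcm5 stood at 167.3 and 161.4 (-0.05) and Mcm4 at 83.5 and 85.1. So members of 1 complex were not shifted by 1 common factor. The 8 genes of the fork, primer synthesis and repair summed to 965 and 911 CPM (-0.08) and spanned the widest range of the replication roles. Ung, the glycosylase that removes uracil from DNA, stood at 57.8 and 39.6 CPM (-0.55, interval -0.61 to -0.49), the lowest ratio of the panel. Exo1, an exonuclease of mismatch repair, stood at 75.9 and 56.4 CPM (-0.43). Clspn, which carries the checkpoint signal from stalled forks to Chk1, stood on the other side with 97.2 and 113.1 CPM (0.22, interval 0.18 to 0.26). Pcna, the sliding clamp of the polymerases, stood at 248.4 and 220.6 CPM (-0.17).

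Deoxynucleotide supply was the replication role with the lowest ratio, 802 CPM in control against 663 in anti-PD-1 (-0.28, interval -0.29 to -0.26). Most of it came from ribonucleotide reductase, which makes deoxynucleotides from ribonucleotides. Its small subunit Rrm2 stood at 388.6 and 286.4 CPM (-0.44, interval -0.46 to -0.42), and its large subunit Rrm1 at 304.8 and 274.7 (-0.15). The chromatin and S phase entry genes Uhrf1, Hells and Ccne2 (cyclin E2) summed to 517 and 481 CPM (-0.10).

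The mitotic genes of LLC-like cells showed the same small shift, with exceptions in both directions. Mitotic entry and chromosome structure summed to 1371 and 1246 CPM (-0.14). In it, Top2a stood at 673.5 and 591.9 CPM (-0.19), and Cdk1, the kinase that starts mitosis, at 243.0 and 192.4 (-0.34). Mki67 stood at 256.9 CPM in control against 282.2 in anti-PD-1 (0.14, interval 0.11 to 0.16), so the most used proliferation marker lay opposite to most of the panel. Among kinetochore genes (483 and 443 CPM, -0.13), Ndc80 stood at 51.2 and 60.7 CPM (0.25) and its partner Nuf2 at 62.1 and 49.2 (-0.34), although both belong to 1 microtubule-binding complex. The chromosomal passenger genes Aurkb, Birc5 and Cdca8 summed to 402.6 and 361.7 CPM (-0.15). The partners of the anaphase-promoting complex, which marks mitotic proteins for breakdown, summed to 473 and 385 CPM (-0.30). Of these, Ube2c stood at 275.7 and 204.9 CPM (-0.43), beside -0.14 for Cdc20.

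The spindle and motor genes summed to 1316 and 1307 CPM (-0.01), the role closest to equal. Its highest ratio was that of Psrc1, a microtubule-binding protein encoded at chr3:108383839-108388231 on the plus strand (GRCm38). Psrc1 stood at 81.6 CPM (7219 UMIs) in control and 142.1 CPM (13673 UMIs) in anti-PD-1, a log2 ratio of 0.80 (0.76 to 0.84). It was the 1 member past 1.5-fold, and its higher level in anti-PD-1 is part of the near-equal sum of the role. Aurka and Nek2, kinases of the spindle poles, stood at -0.31 and -0.39.

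**Figure D1:**
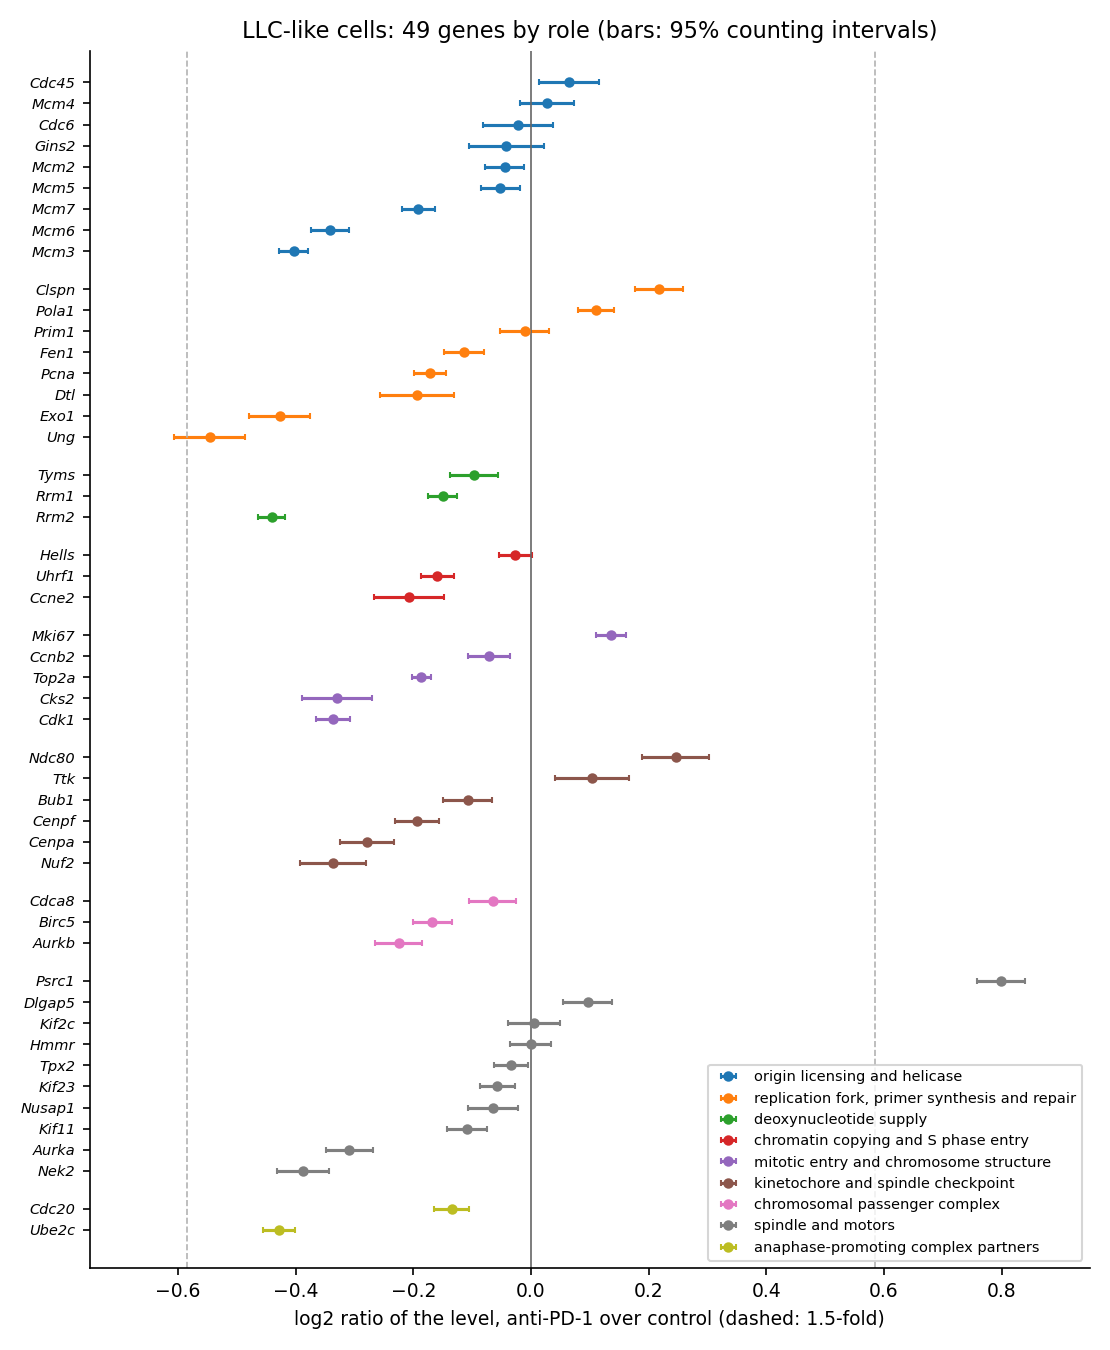
Log2 ratio of the level in LLC-like cells, anti-PD-1 over control, for each of 49 genes grouped by role (points, with 95% counting intervals as bars; dashed lines mark 1.5-fold). Most points lie between -0.45 and 0, Ung is lowest at -0.55, and Psrc1 at 0.80 lies alone past the right dashed line.

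Within the tumour cells the levels of both lists varied widely from cell to cell. LLC-like cells were thinned to 5000 UMIs each, which left out 169 control and 395 anti-PD-1 cells that were shallower. A cell then had a median of 16 S list UMIs in control (5th to 95th percentile 3 to 37) and 13 in anti-PD-1 (2 to 35). For the G2/M list the medians were 16 (2 to 41) and 14 (2 to 40). The variance was 6.25 and 7.22 times the mean for the S list and 8.90 and 9.97 times for the G2/M list, where chance draws from equal cells would give about the mean itself. Cells with at most 5 UMIs of each list were 7.81% in control against 14.1% in anti-PD-1. At the upper end, 9.02% and 14.3% of cells had over 2 times the median S list UMIs of their library, 13.1% and 17.8% had this for the G2/M list, and 0.22% and 1.05% for both. Spearman's correlation of the lists over cells was 0.17 in control against 0.34 in anti-PD-1, as a description of 3647 and 5262 cells that share their library.

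Each member was then compared between LLC-like cells that ranked highest and lowest by the other genes of its own list, after the cells were split into 3 groups of equal size. All 23 S list genes and 25 of 26 G2/M list genes were over 2-fold higher in the top group in both libraries. Of the genes outside the panel, 1.22% (control) and 2.76% (anti-PD-1) were so between the S list groups and 1.98% and 2.98% between the G2/M list groups. The median fold of the members, averaged over the libraries, was 3.82 for the S list and 7.44 for the G2/M list. By the mean over both libraries the widest folds were those of Kif2c, a motor that takes microtubules apart, at 8.70 in control against 13.4 in anti-PD-1, and of Nusap1, which bundles spindle microtubules, at 9.93 and 11.8. In the S list, Cdc6, the factor that loads Mcm rings, stood out at 8.71 and 9.68, beside 2.05 and 3.21 for Rrm1. The exception was again Psrc1, at 1.42 and 1.41. Its level in the tumour cells thus hardly followed the other mitotic genes of the same cell, and its higher level in the anti-PD-1 library stood apart from them too.

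The level of the panel also differed between tumour cells ranked by other genes. Cells were ranked by the summed level of a few genes, chosen with earlier results of these data known, split into 3 groups of equal size, and the top group (1215 control or 1754 anti-PD-1 cells) was set against the lowest. With 10 hypoxia genes, the top group had an S list ratio (log2) of -0.42 in control (4037 to 3024 CPM) and -0.30 in anti-PD-1, and a G2/M list ratio of -0.46 and -0.50. With Gria3, a glutamate receptor, and Gpnmb, a membrane glycoprotein, the ratios were -0.40 and -0.56 for the S list and -0.49 and -0.57 for the G2/M list. Both rankings thus put fewer replication and mitosis UMIs in their top cells in both libraries. Gria3, and Dkk2 used below, are among the markers of LLC-like cells, and Lum is among those of fibroblasts. The median depth of the hypoxia groups was 17625 (lowest) and 16120.0 (top) UMIs in control and 13939 and 12895 in anti-PD-1. That of the Gria3 and Gpnmb groups was 18124 and 16016 in control and 14595 and 13307.5 in anti-PD-1. The part of depth and of the choice of markers in these ratios was not tested. With Ncam1 and F2r, an adhesion molecule and the thrombin receptor, the ratios were positive: 0.11 and 0.20 for the S list and 0.13 and 0.36 for the G2/M list. Over the median cell the G2/M list ratio of this ranking was -0.017 in control, where its sign differed from that of the sums, and 0.66 in anti-PD-1. The median depths (lowest and top) were 17981 and 16639 UMIs in control and 13330 and 12756 in anti-PD-1. Rankings by Ptn and Lum, by 4 interferon-induced genes and by the p53 targets Cdkn1a, Mdm2 and Ccng1 gave ratios from -0.19 to 0.04. For the p53 targets the median cell differed from the sums: its G2/M list ratio was 0.22 in control and 0.43 in anti-PD-1, beside sums at -0.07 and 0.04, and its S list ratio -0.26 and 0.01. The top cells of this ranking were deeper, at 18475 against 15908 UMIs in control and 16736 against 11561.5 in anti-PD-1. Dkk2 and Col8a1 gave 0.00 and 0.03 for the S list, and -0.13 and -0.30 for the G2/M list. Over the median cell they gave 0.02 and -0.07, and -0.26 and -0.66. In anti-PD-1 the median cell also differed in sign from the summed G2/M list with Ptn and Lum (-0.17 beside 0.02). The same held with the interferon-induced genes (0.06 beside -0.03). Median-cell G2/M list ratios were -0.49 and -0.77 with the hypoxia genes and -0.73 and -1.38 with Gria3 and Gpnmb. Between the libraries, the hypoxia genes were themselves apart in LLC-like cells: after anti-PD-1, 7 of 10 were over 1.5-fold lower, beside 8.38% of all genes tested, with a median log2 ratio of -0.94, led by Ankrd37 at 16.9 and 6.71 CPM.

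**Figure D2:**
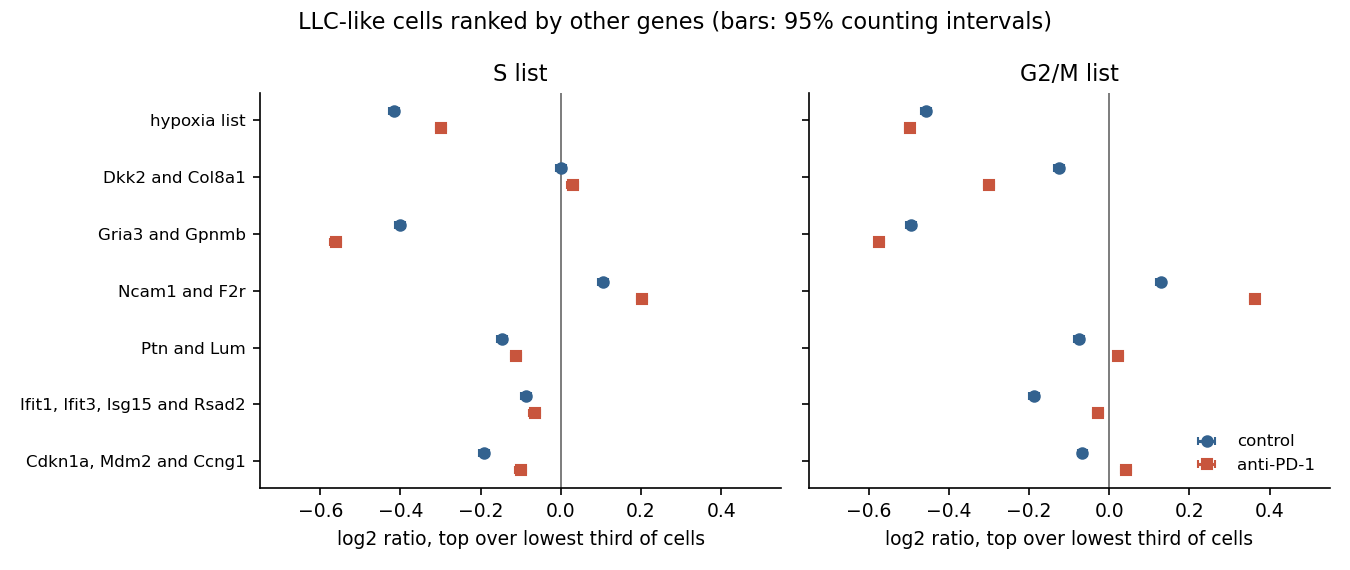
Log2 ratio of the summed S list (left) and G2/M list (right) level between the top and the lowest of 3 equal groups of LLC-like cells ranked by the genes named at the left (circles control, squares anti-PD-1, bars 95% counting intervals). The hypoxia and the Gria3 and Gpnmb rankings lie between -0.57 and -0.30 in both libraries, and Ncam1 and F2r lies between 0.11 and 0.36.

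Other genes of the division machinery were read in LLC-like cells beside the same background, 3.91% of 11907 genes higher and 8.38% lower over 1.5-fold. The lists were 9 further cyclins and cyclin-dependent kinases, 8 kinase inhibitors, 15 E2F, RB and DREAM regulators, 14 origin and checkpoint regulators and 16 mitotic genes. The mitotic genes included kinases, separase and condensin subunits. Among those of all lists with at least 100 UMIs, 0 were over 1.5-fold apart. Over these genes the median log2 ratios of the lists were -0.13, -0.02, -0.06, -0.05 and 0.03. Ccne1 (cyclin E1) was lowest among the cyclins, at 42.4 and 30.7 CPM (-0.47), followed by Ccnd3 at -0.34, while Ccnb1 stood at 0.26. The inhibitors Cdkn2d, Cdkn1b and Cdkn3 stood at -0.31, -0.14 and 0.07. Among regulators E2f4, a repressor of the DREAM complex, stood at 313.2 and 246.7 CPM (-0.34), Lin9 at -0.27 and Rb1, the brake on E2F, at 34.9 and 43.6 CPM (0.32). Wee1, the kinase that holds Cdk1 inactive, stood at 84.9 and 110.6 CPM (0.38), Brca2 at 0.38 and Gmnn (geminin) at -0.22. Cenpe and Smc4 stood at 0.34 and 0.27, and Pttg1 (securin) at -0.23. Of 10 genes of the p53 response and growth arrest, with Trp53 itself among them, 1 was over 1.5-fold lower (beside 8.38% of all genes). It was Btg2 at 31.2 and 19.7 CPM (-0.66), while Eda2r stood at 63.5 and 93.8 CPM (0.56) and Phlda3 at -0.25.

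Outside the tumour cells the panel was read against genes that are high in LLC-like cells and lower elsewhere. For each library, 50 genes with at least 100 CPM in LLC-like cells were chosen in the other library, and 29 were chosen for both. These genes had the lowest mean level in the other classes relative to LLC-like cells, and not the lowest level itself. Their summed level, as a percent of that in LLC-like cells of the same library, was used as a tumour reference. It holds RNA of tumour cells and any expression of these genes by the class itself, which cannot be told apart here. Slc27a1, a fatty acid transporter, stood at 494 CPM in LLC-like and 316 in macrophage-like cells of anti-PD-1, and Myc at 1327 and 300.1. The percent ran from 10.9% (monocyte-like, anti-PD-1) to 42.6% (endothelial-like, control). Neutrophil-like cells, which should not divide, stood at 30.7% in control and 33.9% in anti-PD-1. A few deep barcodes held much of the RNA of several classes. Cells over 3 times the median UMIs of their class and library were 13 of 65 endothelial-like cells in control and 8 of 30 in anti-PD-1, and they held 82.6% and 82.5% of the member UMIs of the class. In T cell-like cells 12 of 233 and 2 of 87 cells held 21.8% and 34.1%, and in NK cell-like cells 7 of 96 and 4 of 148 held 44.9% and 8.21%. In macrophage-like cells 131 of 1298 and 154 of 1297 held 53.8% and 48.0%, and in neutrophil-like cells 10 of 146 and 7 of 112 held 36.5% and 44.0%. Levels without these deep cells are given beside the sums of each class. Whether they are doublets was not tested.

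T cell-like cells of the control library had the highest panel level outside the tumour cells once deep cells were left out. Summed over the panel, T cell-like cells stood at 67.9% of the LLC-like level in control and 64.1% in anti-PD-1, beside tumour reference genes at 25.1% and 26.1%. Without deep cells they stood at 72.1% and 52.8%, beside 17% and 16.6%. NK cell-like cells stood at 37.2% and 58.2%, beside 15.4% and 14.4%, and without deep cells at 31.8% and 59.9%, beside 13.1% and 13.8%. Neutrophil-like cells stood at 43.4% and 63.3%, beside 30.7% and 33.9%, and without deep cells at 39.97% and 55.2%, beside 20.3% and 23.4%. Panel over reference, the fold was 4.24 and 3.18 for T cell-like and 2.42 and 4.34 for NK cell-like cells without deep cells, and 2.70 and 2.45, and 2.41 and 4.03, with all cells. In neutrophil-like cells it was 1.97 and 2.36 without deep cells and 1.41 and 1.87 with them. The lymphoid folds were thus above the neutrophil-like ones in both libraries, with and without deep cells. For the other classes this depended on the deep cells. Without them the folds were 2.27 and 2.16 in macrophage-like, 2.94 and 2.03 in dendritic cell-like, 1.61 and 1.78 in monocyte-like and 1.73 and 1.76 in endothelial-like cells, and with all cells 1.68 and 1.94, 2.27 and 1.87, 1.58 and 1.79, and 1.38 and 2.03. The reference genes were chosen for low levels elsewhere relative to LLC-like cells, so most genes lie above their percent. In T cell-like cells of control 9133 of 9417 genes did (97.0%), and in NK cell-like cells of anti-PD-1 8896 of 9378 (94.9%). The median gene stood at 90.4% and 80.2% of its LLC-like level in these, beside 69.0% and 57.7% for the median member. These folds are a description with no test. With few cells beside LLC-like and macrophage-like ones, fewer cycling cells and less RNA per cell cannot be told apart in these sums.

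**Figure D3:**
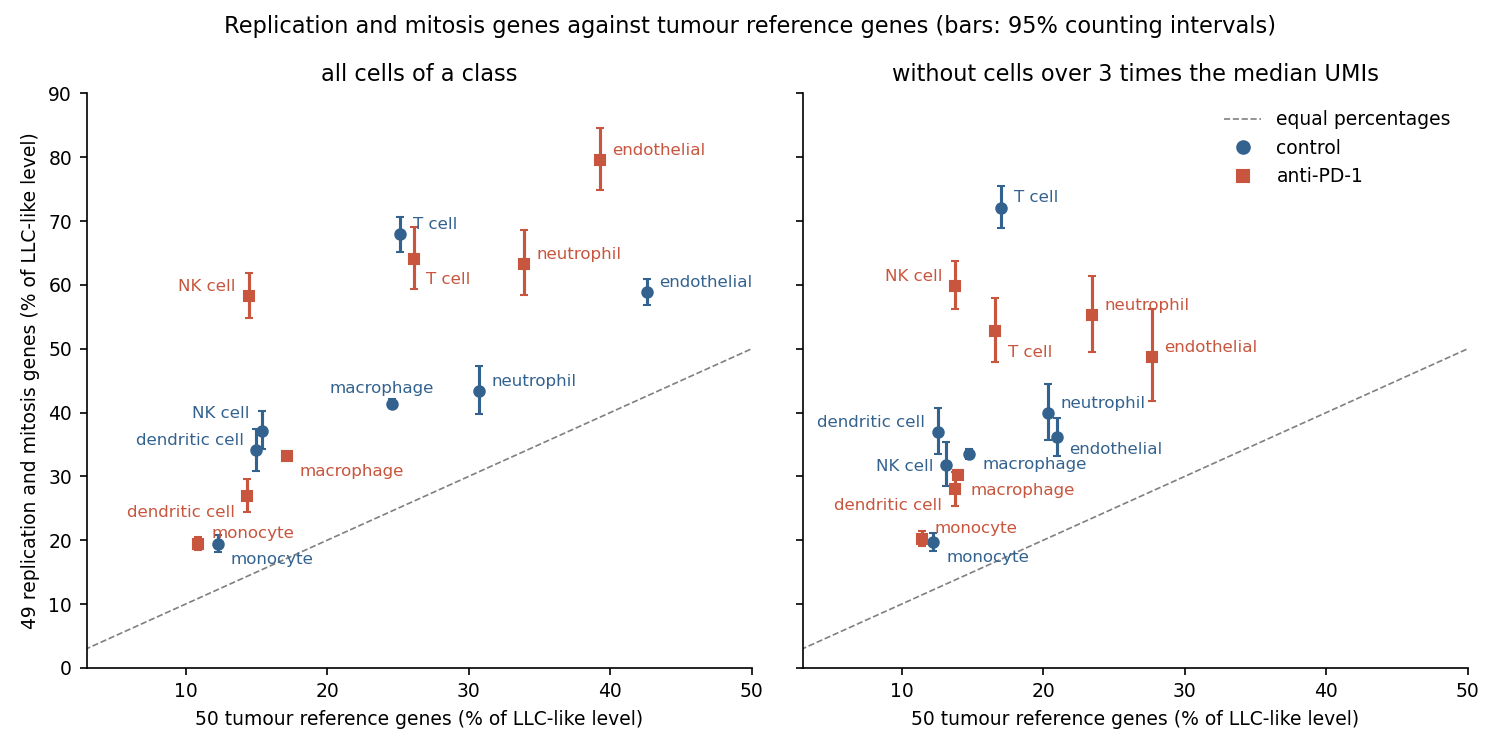
Summed level of 49 replication and mitosis genes (vertical) against 50 tumour reference genes (horizontal), each in percent of the LLC-like level of the same library, for 7 other classes with all cells (left) and without cells over 3 times the median UMIs (right). Bars are 95% counting intervals and the dashed line marks equal percentages: without deep cells, T cell-like cells of control (72.1%) and NK cell-like cells of anti-PD-1 (59.9%) lie highest, and monocyte-like cells (19.7% and 20.3%) lowest.

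T cell-like cells had the S list at 2487 CPM (2344 to 2636) in control and 1902 (1687 to 2137) in anti-PD-1, and the G2/M list at 2695 (2547 to 2850.1) and 2548 (2298 to 2817). The log2 ratios were -0.39 and -0.08. Without deep cells the G2/M list stood at 2733 and 1537 CPM, a log2 ratio of -0.83 (-1.06 to -0.60), and the S list at 2626 and 2009, a ratio of -0.39 (-0.60 to -0.18). One barcode with 16199 UMIs was the deepest of the anti-PD-1 class. Mki67 stood at 276.1 CPM (126 UMIs) in control, which was 107% of its LLC-like level, and at 174.8 CPM (26 UMIs) in anti-PD-1, 61.9% of it. Without deep cells these were 327.5 and 138.2 CPM, a log2 ratio of -1.24 (-2.07 to -0.50). In control, 8 of 49 members stood above their LLC-like level, as did 4100 of 9417 genes. Cenpa, the histone that marks centromeres, was at 160% of it, Ndc80 at 137%, and Prim1, the primase that starts new strands, at 130%. At the lower end, Exo1 stood at 34.6% and Aurka at 40.5%.

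Other members in T cell-like cells rested on few UMIs in the anti-PD-1 library. Rrm2 stood at 181.9 and 87.4 CPM (83 and 13 UMIs, log2 ratio -1.06), Mcm5 at 124.9 and 73.9 (-0.76, interval -1.84 to 0.19) and Top2a at 387.8 and 349.5 (-0.15). Kif11, the motor that pushes spindle poles apart, stood at 177.5 and 73.9 CPM (-1.26) and Prim1 at 127.1 and 53.8 (-1.24). The highest ratios were those of Tpx2 (100.8 and 141.2 CPM, 0.49) and Dlgap5 (81.1 and 141.2 CPM, 0.80), spindle assembly factors whose intervals included 0. Where T cells were taken from whole clusters in place of single-cell gates, the panel's log2 ratio was 0.04 and not -0.22, and with the gate 2 times as strict it was -0.67. Cluster 17 held 350 and 160 barcodes, of which 215 and 79 were T cell-like by the gate. Whole clusters thus take in barcodes that the gate left out. Over all of cluster 17 the S list stood at 3313 and 3106 CPM and the G2/M list at 3904 and 3946. The ratio was below 0 with both gates and near 0 with whole clusters, so its sign and size depend on how T cells are defined.

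Most T cell-like cells of control had Cd8a or Cd8b1 UMIs and no Cd4 or Foxp3 (169 of 233), against 26 of 87 in anti-PD-1. These CD8 cells stood at 2639 CPM for the S list and 2754 for the G2/M list in control. In anti-PD-1 they stood at 2063 and 4708 CPM, but 1 of the 26 cells was deep, and the other 25 stood at 2344 (1878 to 2891) and 1697 (1304 to 2172). Without deep cells, control CD8 cells stood at 2872 and 2837 CPM, 80.0% and 74.0% of the LLC-like levels, beside tumour reference genes at 16.1%. Cells with Cd4 or Foxp3 numbered 19 and 23, and the 23 of anti-PD-1 stood at 1383 (1001 to 1862) and 1672 (1249 to 2192) CPM. The 42 control cells with none of these genes stood at 2139 and 2551 CPM, and the 38 of anti-PD-1 at 2020.1 and 1181. The median depths of these cells were 1268.5 and 1402.5 UMIs, so 0 UMIs of these genes does not show that they were not CD8 cells. In control 4 of the 42 were deep and held 49.5% of the member UMIs, and the other 38 stood at 1644 and 2096 CPM.

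NK cell-like cells had the S list at 1321 CPM (1170.0 to 1486) in control and 2230.0 (2052 to 2419) in anti-PD-1, a log2 ratio of 0.76 (0.55 to 0.97). The G2/M list stood at 1517 and 1813 CPM (0.26), and without deep cells at 1173 and 1869 (0.67, interval 0.41 to 0.94). The S list without deep cells stood at 1187 and 2154 CPM (0.86, interval 0.60 to 1.12). The median of all genes between the libraries was 0.14 in this class. The highest ratio was that of Hells, with 11 UMIs (52.5 CPM) in control and 60 (231.5 CPM) in anti-PD-1 (2.14, interval 1.20 to 3.22), which brought it to 102% of its LLC-like level. Mki67 had 16 UMIs (76.3 CPM) and 47 (181.3 CPM, ratio 1.249, interval 0.40 to 2.17), and Mcm5 12 UMIs (57.2 CPM) and 34 (131.2 CPM, 1.20). Not all members were higher. Top2a stood at 290.9 and 258.5 CPM (-0.17, but 0.42 without deep cells), Rrm2 at 143.1 and 115.7 (-0.31, interval -1.09 to 0.47), and Cenpa at 147.8 and 108.0 (-0.45, interval -1.24 to 0.33). Cenpa was nonetheless above its LLC-like level in both libraries, at 166% and 147%. Of 11 members with at least 50 UMIs, 8 were higher and 3 lower. Taken from whole clusters, NK cell-like cells gave a panel log2 ratio of 0.01 in place of 0.51, so this difference too depends on how the cells are named. Cluster 12 held 143 and 194 barcodes, of which 92 and 145 were NK cell-like by the gate.

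**Figure D4:**
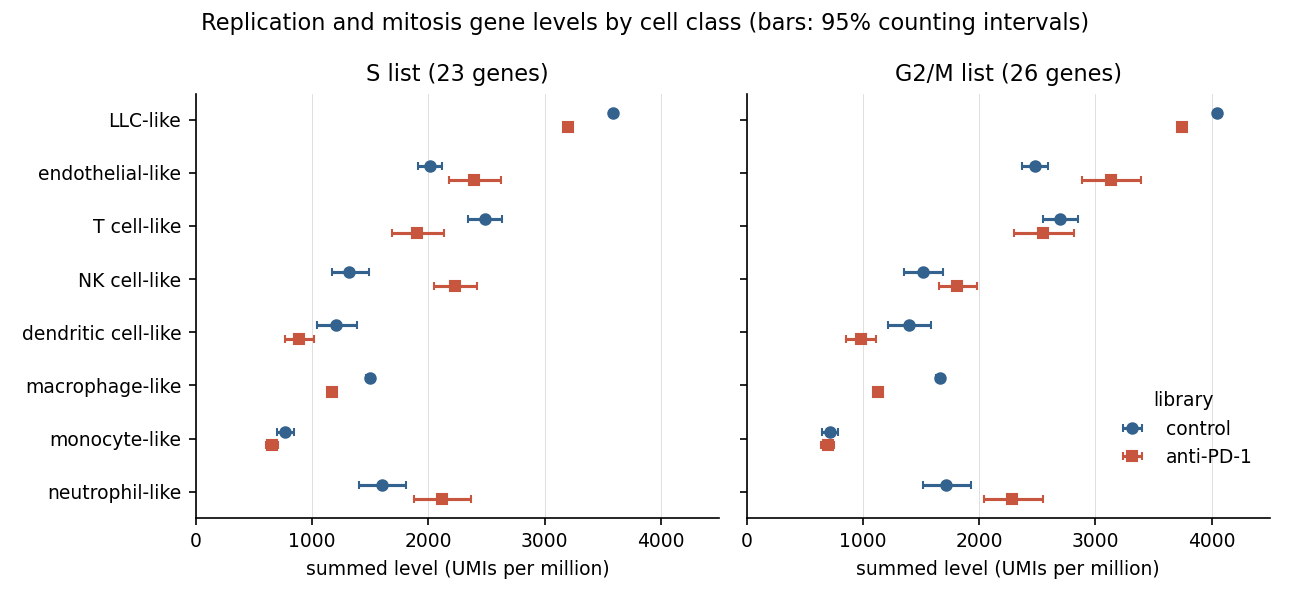
Summed level of the 23 S list genes (left) and 26 measured G2/M list genes (right) in CPM, for each class and library with all cells (circles control, squares anti-PD-1, bars 95% counting intervals). LLC-like cells lie highest, at 3202 to 4047, NK cell-like cells of anti-PD-1 lie to the right of control for the S list, and monocyte-like cells lie lowest, at 655 to 766.

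Macrophage-like cells, the largest immune class, had the S list at 1494 CPM in control against 1173 in anti-PD-1 (log2 ratio -0.35) and the G2/M list at 1665 and 1132 (-0.56). The median of all genes between the libraries was -0.13 in this class. Of 49 members, 3 were higher and 46 lower, with a median of -0.40. Over 1.5-fold, 15 of 49 were lower, beside 9.74% of 9457 genes, and 0 higher, beside 3.09%. Past 2-fold, 3 were lower, beside 1.78%, and 0 higher, beside 0.772%. With the gate 2 times as strict only 1 of 49 was past the fold, and with ratios set against the median gene 7 were. Cdc20 stood at 87.2 and 43.4 CPM (434 and 239 UMIs, -1.01), Aurka at 53.9 and 25.2 (268 and 139 UMIs, -1.09, interval -1.40 to -0.79) and Ung at 24.5 and 11.4 (122 and 63 UMIs, -1.10). At the other end were Mcm4 at 38.0 and 39.0 CPM (0.04) and Clspn at 32.3 and 34.1 (0.08). Top2a stood at 251.8 and 165.2 CPM (-0.61), Rrm2 at 146.3 and 94.2 (-0.63), Mcm5 at 81.2 and 61.9 (-0.39) and Mki67 at 120.4 and 104.2 (-0.21, but 0.07 without deep cells and 0.43 with the stricter gate).

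The tumour reference genes were, like the panel, a smaller percent of the LLC-like level in macrophage-like cells of anti-PD-1, at 24.6% of the LLC-like level in control and 17.1% in anti-PD-1, beside the panel at 41.4% and 33.2%. Without deep cells the panel stood at 33.5% and 30.3% and the reference genes at 14.8% and 14.0%, and the log2 ratio of the panel was -0.29. The S list then stood at 1228.5 and 1036 CPM (-0.25) and the G2/M list at 1261 and 998 (-0.34). The part of tumour RNA in the difference was not tested. By subset, cells with Lyve1, Folr2 or Cd163, genes of resident macrophages, had the S list at 1639 CPM in control (251 cells) and 1208 in anti-PD-1 (494 cells). Cells with Arg1 or Mmp12 had it at 1173 (340 cells) and 748 (168 cells). Their G2/M lists stood at 1299 and 1213 CPM and at 1265 and 767 CPM. In both libraries the S list thus lay higher in the Lyve1, Folr2 or Cd163 cells than in the Arg1 or Mmp12 cells. In control the G2/M list intervals overlapped, at 1233 to 1367 and 1196 to 1337 CPM. The Lyve1, Folr2 or Cd163 cells were deeper than the Arg1 or Mmp12 cells, with medians of 3215 and 3575.5 UMIs beside 2363.5 and 2248.5. The part of depth in these levels was not tested. The reference genes of the former also lay higher, at 23.2% and 16.6% beside 19.3% and 13.1%. Cells with none of these genes (471 in control, 380 in anti-PD-1) had the S list at 1482 and 968 CPM. Their G2/M list stood at 1566 and 1030 CPM, in control above both other subsets. These subsets leave out part of the macrophage-like cells, and their levels without deep cells are not given.

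Monocyte-like cells, which also had to pass the macrophage gate, had the lowest panel level. The S list stood at 766 CPM in control against 655 in anti-PD-1 (-0.22) and the G2/M list at 716 and 697 (-0.04). Without deep cells the S list stood at 746 and 629 CPM and the G2/M list at 718 and 732. Their tumour reference genes were lowest too, at 12.3% and 10.9%. Of 2 members with at least 100 UMIs, 0 were past 1.5-fold, beside 4.05% of 3485 genes higher and 4.56% lower, and 0 past 2-fold, beside 0.574% and 0.717%. Rrm2 stood at 92.5 and 44.4 CPM (54 and 41 UMIs, -1.06, interval -1.68 to -0.45), Mcm3 at 59.9 and 32.5 (-0.88), Ube2c at 46.2 and 57.4 (0.31) and Hells at 25.7 and 44.4 (0.79, interval -0.09 to 1.75). Mki67, Top2a and Mcm5 stood at 39.4 and 46.6, 109.6 and 104.0, and 46.2 and 40.1 CPM.

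Dendritic cell-like cells had the S list at 1204 CPM (1042 to 1385) in control and 886 (768 to 1015) in anti-PD-1 and the G2/M list at 1395 and 981 (-0.51). Their reference genes stood at 15% and 14.4%. Without deep cells the S list stood at 1255 and 898.5 CPM (-0.48) and the G2/M list at 1491 and 979 (-0.61). The class lay in different clusters: 32 of 62 control cells in cluster 20 and 42 of 94 anti-PD-1 cells in cluster 14. Over all cells of cluster 20 the G2/M list stood at 1269 and 967 CPM, and over those of cluster 14 at 3003 and 3436. The part of this makeup in the ratios was not tested. Top2a, the 1 member with at least 50 UMIs, stood at 258.1 and 177.1 CPM (42 and 41 UMIs, -0.54, interval -1.20 to 0.11). Mki67 had 17 and 21 UMIs (104.5 and 90.7 CPM), Mcm5 9 and 15, and Rrm2 20 and 16. In anti-PD-1 the 39 cells with Ccr7 or Ccl22, genes of mature migrating dendritic cells, had G2/M lists at 1038 CPM (834 to 1278), and the 20 cells with Xcr1 or Clec9a, genes of the cross-presenting type, at 1350 (1058 to 1697).

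Endothelial-like cells had high sums that rested on deep cells. The S list stood at 2012 and 2392 CPM and the G2/M list at 2480.2 and 3134 CPM with all cells. Without deep cells, 52 and 22 cells remained, with the S list at 1239 and 1669 CPM and the G2/M list at 1445 and 1598. The deepest control barcode had 189155 UMIs, where the class median was 4508. With all cells Mki67 stood at 209.5 and 299.7 CPM, Top2a at 382.9 and 436.4, Mcm5 at 100.1 and 115.7 and Rrm2 at 225.5 and 173.5. No ratio between libraries is read from 30 anti-PD-1 cells.

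Neutrophil-like cells gave the background. The S list stood at 1598 CPM (1406 to 1808) in control and 2113 (1879 to 2368) in anti-PD-1 and the G2/M list at 1712 and 2285, on 520 and 614 UMIs over the panel. Top2a had 45 and 49 UMIs (286.4 and 351.0 CPM, log2 ratio 0.29) and Rrm2 29 and 26 (184.6 and 186.2 CPM, 0.01). Mki67 had 12 and 21 UMIs (76.4 and 150.4 CPM) and Mcm5 13 and 17 (82.8 and 121.8 CPM). Without deep cells the S list stood at 1394 and 1628 CPM (0.22) and the G2/M list at 1574 and 2081 (0.40). With and without deep cells, the sums of both lists lay above those of macrophage-like and monocyte-like cells, and in control above those of NK cell-like cells. In anti-PD-1 the panel stood at 63.3% of the LLC-like level, beside 58.2% in NK cell-like and 64.1% in T cell-like cells. Without deep cells these were 55.2%, 59.9% and 52.8%. T cell-like cells of control lay higher both times (67.9% and 72.1%, beside 43.4% and 39.97%). Neutrophil-like cells were the class with the lowest depth, so a panel level of this size in a shallow class is not by itself a sign of division.

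At equal depth the cells of a class could be compared one by one. Every cell was thinned to 1000 UMIs, and shallower cells were left out (106 of 146 control and 74 of 112 anti-PD-1 neutrophil-like cells, 50 of 233 and 21 of 87 T cell-like cells, 19 of 96 and 28 of 148 NK cell-like cells, 186 of 1298 and 112 of 1297 macrophage-like cells). At least 2 G2/M list UMIs were found in 69.5% (68.0% to 70.9%) of control and 61.9% (60.6% to 63.2%) of anti-PD-1 LLC-like cells. Unthinned, the shares were 99.1% and 98.6%. The background was high, since 57.5% (40.9% to 73.0%) and 63.2% (46.0% to 78.2%) of neutrophil-like cells reached it too. T cell-like cells reached it in 51.4% and 40.9%, NK cell-like in 24.7% and 31.7%, and macrophage-like in 33.4% and 25%. Dendritic cell-like cells did so in 35.1% and 28.6%, monocyte-like in 16.9% and 16.8%, and endothelial-like in 35.6% and 42.9%. All these shares were below the neutrophil-like ones, as was the LLC-like share of anti-PD-1. Both LLC-like shares and the T cell-like share of control lay within the neutrophil-like intervals. That background rests on 40 control and 38 anti-PD-1 cells, the deeper ones of a class with medians of 737.5 and 833.5 UMIs. Of these, 37 control cells had 6405 CPM of tumour reference genes and the other 3 had 4928, beside 4819 over the whole class. In anti-PD-1, 35 cells had 8839 CPM and the other 3 had 11382, beside 8151 over the class. At this threshold no share is read as expression or as its lack.

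A higher threshold, chosen after these shares were seen, set LLC-like cells apart from neutrophil-like ones. At least 8 member UMIs in 1000 were found in 44.2% of control and 36.2% of anti-PD-1 LLC-like cells, and in 7.50% (1.57% to 20.4%) and 7.89% (1.66% to 21.4%) of neutrophil-like cells. T cell-like cells of control reached it in 45 of 183 cells, 24.6% (18.5% to 31.5%), and those of anti-PD-1 in 7 of 66, 10.6% (4.37% to 20.6%). Unthinned, 41.2% and 18.4% of T cell-like and 9.59% and 11.6% of neutrophil-like cells had 8 or more. NK cell-like cells did so in 6 of 77 (7.79%) and 16 of 120 (13.3%, 7.82% to 20.7%). The shares were 5.04% and 3.12% in macrophage-like, 5.26% and 1.10% in dendritic cell-like and 10.2% and 14.3% in endothelial-like cells. Among monocyte-like cells 0 of 225 control cells reached it, which allows a share of up to 1.33%, and 1 of 340 anti-PD-1 cells. Outside the tumour, the control T cell-like share was the highest, and its lower bound of 18.5% lay within the interval of neutrophil-like cells. The same holds for NK cell-like and endothelial-like cells, whose shares were above the neutrophil-like ones by less than these intervals.

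**Figure D5:**
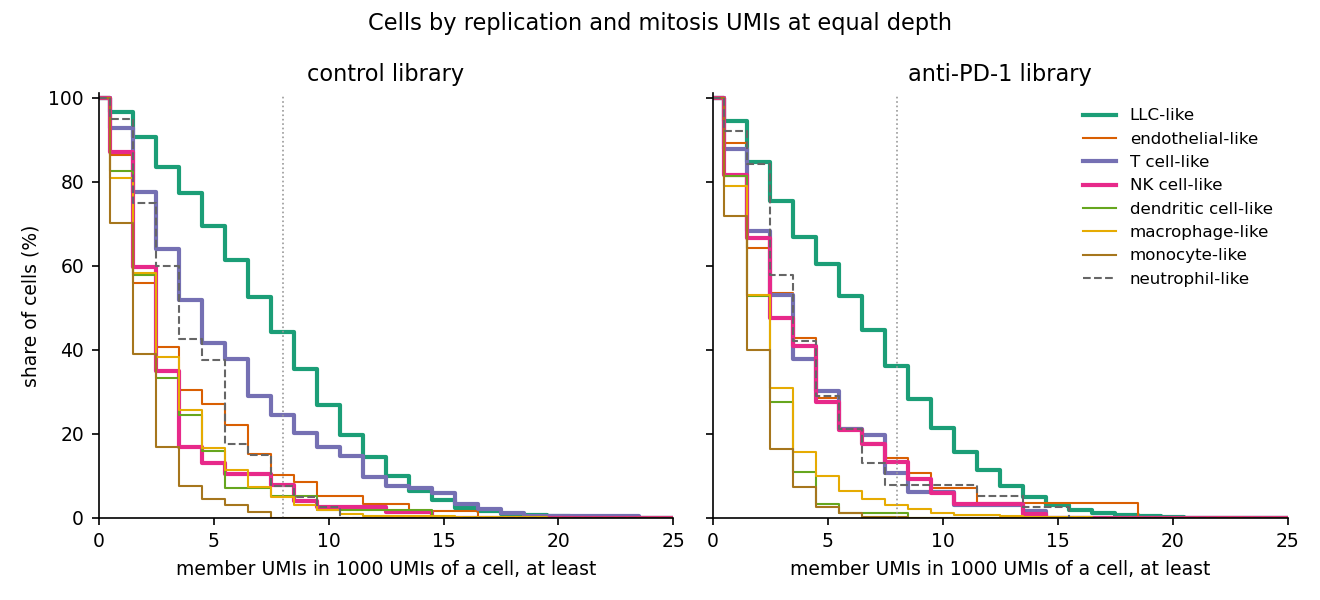
Share of cells with at least the number of member UMIs on the horizontal axis, after each cell was thinned to 1000 UMIs, by class, in control (left) and anti-PD-1 (right). The dotted line marks 8 UMIs, where LLC-like cells stand at 44.2% and 36.2%, T cell-like cells at 24.6% and 10.6%, and neutrophil-like cells (dashed) at 7.50% and 7.89%.

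The cells with at least 8 member UMIs were compared with the rest of their class in tumour reference genes and own markers. In control T cell-like cells the 45 high cells had 3378 CPM of tumour reference genes (3018 to 3770) beside 4304 (4080 to 4537) in the other 138, and 5237 CPM of T cell markers beside 5922. The part of tumour RNA in these counts was not tested. In anti-PD-1 the 7 high T cell-like cells had 9962 CPM of reference genes beside 5549, and 2248 CPM of T cell markers beside 6455. The 16 high NK cell-like cells of anti-PD-1 had 3327 CPM of reference genes (2749 to 3990) beside 3432 (3183 to 3697), and 9837 CPM of NK markers beside 11770. In control the 6 high NK cell-like cells had 3398 CPM of reference genes beside 2277. Macrophage-like high cells had a higher reference level than the rest in both libraries, 6399 beside 3631 CPM in control (56 cells) and 5553 beside 4035 in anti-PD-1 (37 cells). Their macrophage markers stood at 9578 beside 14266 CPM in control and 23170 beside 21570 in anti-PD-1.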

How the data were processed

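Single cells of LLC tumours were profiled with a droplet kit, which the labels name both as a probe-based Flex kit and as a 3' protocol. The deposited matrices hold whole UMI counts per gene and barcode that the authors made with Cell Ranger, version 7.0.1 with mm10 per the submitters' processing notes and version 9.0.1 per the file headers. Barcodes under 300 genes or above 20% mitochondrial UMIs were removed, which left 8395 of 8441 in control and 9422 of 9423 in anti-PD-1. A class needs at least 3 UMIs of at least 2 of its markers and a minimum marker level in CPM, set after the marker levels were seen. Monocyte-like cells need 2 UMIs over their markers and the minimum level, and must also pass the macrophage gate. No doublet caller was used, and barcodes that passed for more than 1 lineage were left out. The exception was cells that passed the gates of both dendritic cells and macrophages, which were named by the higher relative marker level. Counts were summed per class and library, divided by all UMIs of the class and scaled to 1000000 (CPM). Intervals are exact Poisson for sums, exact Clopper-Pearson for shares and conditional Clopper-Pearson for ratios. They cover counting error only. Folds use genes with at least 100 UMIs in classes with at least 200 cells per library, and 0 counts are read against a floor of 3 counts. Thinning draws UMIs without replacement, with a fixed seed. Clusters (Leiden, 2000 variable genes, 40 components, 15 neighbours) were built without the panel.

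The genes with given values are the 4 members per list with most UMIs and the 4 highest and 4 lowest ratios in LLC-like cells, the 2 highest and 2 lowest in other classes, Mki67, Top2a, Mcm5 and Rrm2 throughout, and the 3 farthest from 0 of each other list. Mcm4, Mcm6, Nuf2, Aurka, Nek2, Cdc20, Kif2c, Nusap1 and Cdc6, and in T cell-like cells Cenpa, Ndc80, Exo1 and Aurka, are named beyond this rule, after their values were seen. The members, gene lists, rankings, tumour reference genes and the threshold of 8 UMIs were chosen with earlier results of these data known. Alternatives were stricter gates, cluster names, removal of deep cells or of cells with LLC markers, other scaling, thresholds and depths. Scripts were tested on simulated data. Python 3.11.15, numpy 2.4.6, scipy 1.17.1, pandas 2.3.3, scanpy 1.11.5 and matplotlib 3.10.9 were used.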

Additional observations from a re-analysis of the deposited data

Results flagged for a closer look

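In 2 of the 7 classes that had 50 or more cells per library, both lists stood higher in the anti-PD-1 library while they stood lower in LLC-like cells, whose log2 ratios were -0.16 for the S list and -0.11 for the G2/M list. NK cell-like cells had an S list ratio of 0.76 and a G2/M list ratio of 0.26, on 595 and 1048 panel UMIs. Neutrophil-like cells had an S list ratio of 0.40 and a G2/M list ratio of 0.42, on 520 and 614 panel UMIs. Endothelial-like cells, with 30 cells in anti-PD-1, had both lists higher too and no ratio is read from them. The difference between these classes and LLC-like cells was not tested, since each group has 1 library. The neutrophil-like panel ratio was -0.10 in cells with 0 UMIs of 4 LLC markers, and the NK cell-like one was 0.78 in such cells.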

How the results depend on the processing

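Each value was recomputed with 1 choice changed. Panel levels are CPM summed over 49 genes, as the mean of the libraries, and ratios are log2, anti-PD-1 over control. As reported, the levels were 7287 (LLC-like), 2732 (macrophage-like), 1417 (monocyte-like), 3854 (neutrophil-like), 2233 (dendritic cell-like), 4816 (T cell-like) and 3440.4 (NK cell-like). With the marker gates 2 times as strict they were 7139.6 in LLC-like, 2235 in macrophage-like, 3415 in neutrophil-like and 4380.3 in T cell-like cells. The ratios were then -0.13 (LLC-like), -0.083 (macrophage-like), -0.28 (dendritic cell-like), -0.67 (T cell-like) and 0.74 (NK cell-like), and Dlgap5 in T cell-like cells was at -0.077. With classes named by whole clusters the levels were 7329.9 in LLC-like, 2313 in macrophage-like, 1669 in monocyte-like, 5246 in neutrophil-like, 4109 in dendritic cell-like, 6701 in T cell-like and 3937 in NK cell-like cells. The ratios were -0.17 (LLC-like), -0.18 (macrophage-like), -0.12 (neutrophil-like), -0.16 (dendritic cell-like), 0.040 (T cell-like) and 0.0081 (NK cell-like). In T cell-like cells Kif11 (0.0088), Mcm5 (0.14), Mki67 (0.31) and Prim1 (0.040) then stood on the other side of 0. Cells with 0 UMIs of 4 LLC markers had levels of 2058 (macrophage-like), 1256 (monocyte-like), 3148 (neutrophil-like), 4432 (T cell-like) and 3127 (NK cell-like), with ratios of -0.25, 0.059, -0.10, -0.58 and 0.78. Without cells over 3 times the median UMIs the levels were 7073 (LLC-like), 2262 (macrophage-like), 3339 (neutrophil-like), 4452 (T cell-like) and 3191.5 (NK cell-like), and the ratios -0.15 (LLC-like), -0.29 (macrophage-like), -0.60 (T cell-like) and 0.77 (NK cell-like). As a mean over cells the levels were 6523 (LLC-like), 2515 (macrophage-like), 3372 (neutrophil-like), 4209 (T cell-like) and 3112 (NK cell-like), and the ratios -0.18 (LLC-like), -0.35 (macrophage-like) and -0.48 (T cell-like). Set against the median gene, the ratios were -0.13 in LLC-like and -0.33 in macrophage-like cells. Without a globin-rich cluster, an alternative chosen after seeing the data, macrophage-like cells had 2644 CPM and a ratio of -0.41. Beyond 2-fold in place of 1.5-fold, 0 members were left in LLC-like and 3 in macrophage-like cells (all lower, beside 1.78% of genes). Macrophage-like cells had 7 members past 1.5-fold against the median gene and 1 with the stricter gate, and monocyte-like cells had 6 of 28 with a minimum of 30 UMIs, beside 16.4% of all genes, and 13 of 49 with a minimum of 1, beside 37.9%.

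Shares of cells with at least 2 G2/M list UMIs, as the mean of the libraries, followed the depth and the threshold. Thinned to 2000 UMIs they were 82.7% (LLC-like), 51.4% (macrophage-like), 37.7% (monocyte-like), 78.4% (neutrophil-like), 56.9% (dendritic cell-like), 69.5% (T cell-like) and 63.7% (NK cell-like). With at least 1 UMI they were, in the same order, 83.9%, 58.5%, 48.3%, 79.5%, 62.9%, 71.5% and 61.8%. With at least 4 they were 39.9%, 6.27%, 1.55%, 14.2%, 4.94%, 17.7% and 9.55%. Unthinned they were 98.8% (LLC-like), 64.6% (macrophage-like), 45.4% (monocyte-like), 56.7% (dendritic cell-like), 58.3% (T cell-like) and 48.4% (NK cell-like). The LLC-like and macrophage-like ratios were negative under each alternative run, and the T cell-like, NK cell-like, neutrophil-like and monocyte-like ones were not stable in sign or size. The cause of these shifts was not tested. A minimum of 1000 genes per cell moved none of the 8 summary values it was run on by more than its counting interval. No paired analysis was possible because the groups compared share fewer than 2 replicate numbers and hold 1 library each. Depth limits single members outside LLC-like and macrophage-like cells, where most have fewer than 100 UMIs.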

Other observations

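Barcodes that stayed out of every class held replication and mitosis RNA too. Unnamed barcodes had the panel at 81.3% of the LLC-like level in control (1930 barcodes) and 80.6% in anti-PD-1 (1252), with tumour reference genes at 68.0% and 62.2%. Barcodes with markers of more than 1 lineage had it at 75.6% (464) and 76.5% (353), with reference genes at 73.3% and 73.8%. One shallow cluster without a class name, rich in haemoglobin UMIs, held 867 control barcodes and 249 anti-PD-1 barcodes, with median depths of 1072 and 883 UMIs. Its S list stood at 2980.0 and 3722 CPM and its G2/M list at 3502 and 3404 CPM, while haemoglobin genes stood at 8708 and 622 CPM.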
